A study of Mus musculus with 18 samples.

Results

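The genes of the complement and coagulation cascades were followed in the livers of newborn mice over the first 14 days of life, after injection of a microRNA mimic or of a scrambled control. Members were taken from the pathway annotation that the deposited table carries: genes annotated with the KEGG term for these cascades whose mean over the 18 libraries was at least 10. The term named 85 genes. C1qa, F2rl2 and Cd59a were set aside by name, and 75 of the remaining 82 reached that mean, out of 31165 genes in the table. The 7 that did not were Zp3r, at a mean scaled count of 0.22, Bdkrb1 (0.61), Cfd (1.67), C7 (2.06), C1s2 (3.11), Cr2 (5.17) and Bdkrb2 (5.44). Just inside lay Cd46 at 10.5, Serpina5 at 15.5, Cd59b at 18.3 and Plat at 28.7. The mean of 10 was reached through the younger livers in 4 members, Cd46, Serpinb2, Itgb2l and F2rl3, which averaged under 10 at P14, so their lower values at P14 are partly fixed by the choice.

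All pups were C57BL/6J mice. A synthetic mimic of miR-497a-5p, or an inert scrambled mimic in the controls, was given into the peritoneum on postnatal days 1 and 3, and livers were taken on day 5, 7 or 14 (P5, P7 and P14). There were 3 libraries for each injection on each day, in 6 groups. Doses of 100 and of 10 mg per kg stand in the protocol, the single libraries carry no dose, and the labels do not give the litter of a liver, so the p-values measure the spread between these livers. RNA of a piece of whole liver was sequenced as stranded mRNA libraries, so that fewer cells of a type and less RNA per cell cannot be told apart.

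Both cascades are chains of serine proteases that circulate as inactive precursors, most of them made and secreted by hepatocytes. Coagulation ends with thrombin, which cuts fibrinogen into fibrin and is held in check by inhibitors and by the plasmin system, while complement marks surfaces with C3 fragments and ends with a membrane pore built from C5 to C9. Receptors for the cleaved fragments sit on blood cells, platelets and macrophages, and the newborn liver still houses blood formation.

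The mimic pairs with messages through the seed of the microRNA, bases 2 to 8. Its mature sequence (RefSeq, GRCm38.p6, chr11:70234730-70234751, plus strand) is shown with the seed in capitals, followed by matches to the seed in the 3′ untranslated regions of members, in which the 7 letters TGCTGCT are in capitals.
mmu-miR-497a-5p: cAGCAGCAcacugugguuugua
Masp1, chr16:23451074-23451080, minus strand: acctgtattgcTGCTGCTagtttccataa
Serpinc1, chr1:161004839-161004845, plus strand: gtgcagagcgcTGCTGCTaagatgtctta
They are shown as examples of sites followed by an A, of which there were 3 among the 12 in the members. The Masp1 site shown overlaps with another of the 12. Coordinates are those of the 7 letters in GENCODE M21 on the same build. In all, 8 of 75 members (10.7%) held a match in their longest annotated 3′ untranslated region, namely Masp1, Serpinc1, Tfpi, Thbd, Clu, C6, C8a and C3ar1. Over all tested genes with such a region the share was 24.5% of 13190. The members' regions were shorter, with a median of 493 bases against 1174.

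Promoters were read for the 57 members that matched a RefSeq promoter (GRCm38.p6, 250 bases before to 50 after the start). Letters of sites known for hepatocyte and myeloid factors were searched on both strands, and no 2 motifs overlapped in a member. The C/EBP site TTGCNNAA stood in 33.3% of member promoters, against 8.79% of those of tested genes and 10.8% of all 27025 promoters. Promoters of the gene copies Serpina1a, Serpina1b, Serpina1d and Serpina1e were each counted among the members with it. The PU.1 site GAGGAA stood in 21.1%, against 26.9% and 28.3%, and the GATA site AGATAA in 10.5%, against 6.88% and 11.4%. Below are an abundant fibrinogen gene that carries the C/EBP letters and C9 and F9, from the 11 members higher at P14 than at P5. The integrin genes Itgam and Itgb2l, from the 17 lower ones, follow. C/EBP letters were in 2 of the 10 rising members with a promoter, C9 and F9, and in 15 of the 33 that did not pass. The promoters shown were chosen after the values of their genes were seen, and motif letters on either strand are in capitals.
Fga, chr3:83025903-83026202, plus strand, C/EBP: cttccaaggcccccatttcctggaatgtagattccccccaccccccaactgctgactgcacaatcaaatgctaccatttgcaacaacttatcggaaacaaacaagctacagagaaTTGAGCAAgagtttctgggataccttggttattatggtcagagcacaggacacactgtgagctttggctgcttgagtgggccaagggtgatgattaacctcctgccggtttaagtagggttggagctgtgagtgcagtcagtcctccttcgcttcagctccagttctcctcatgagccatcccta
C9, chr15:6445096-6445395, plus strand, C/EBP: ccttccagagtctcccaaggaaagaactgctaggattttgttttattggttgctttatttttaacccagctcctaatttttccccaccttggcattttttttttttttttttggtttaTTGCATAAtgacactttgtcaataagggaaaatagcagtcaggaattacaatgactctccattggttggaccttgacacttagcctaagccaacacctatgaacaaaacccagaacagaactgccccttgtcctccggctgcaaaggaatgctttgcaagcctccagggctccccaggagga
F9, chrX:59999214-59999513, plus strand, C/EBP: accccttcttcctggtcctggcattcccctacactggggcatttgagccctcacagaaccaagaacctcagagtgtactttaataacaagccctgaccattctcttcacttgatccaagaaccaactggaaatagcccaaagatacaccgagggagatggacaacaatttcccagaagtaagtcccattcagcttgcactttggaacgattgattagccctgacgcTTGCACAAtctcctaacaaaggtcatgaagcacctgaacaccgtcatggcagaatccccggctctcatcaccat
Itgam, chr7:128062390-128062689, plus strand, PU.1: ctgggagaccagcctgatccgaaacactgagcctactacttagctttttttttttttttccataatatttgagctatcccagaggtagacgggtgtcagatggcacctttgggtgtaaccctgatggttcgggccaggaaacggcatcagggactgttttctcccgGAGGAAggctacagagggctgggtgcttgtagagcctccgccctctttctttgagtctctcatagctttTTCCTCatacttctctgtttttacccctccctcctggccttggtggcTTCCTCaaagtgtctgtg
Itgb2l, chr16:96443565-96443864, minus strand, PU.1: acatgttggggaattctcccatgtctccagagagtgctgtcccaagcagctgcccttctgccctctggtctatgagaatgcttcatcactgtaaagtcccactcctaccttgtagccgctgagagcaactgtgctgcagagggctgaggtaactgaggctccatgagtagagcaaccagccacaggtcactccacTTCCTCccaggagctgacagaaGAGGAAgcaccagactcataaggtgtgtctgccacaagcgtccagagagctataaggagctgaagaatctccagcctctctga
A match in these windows is a description of letters, not of binding.

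Values are scaled counts: whole numbers that the authors obtained by dividing each library's gene counts by a factor. They summed to between 3954405 and 4248257 per library, and the members made up from 1.38% to 1.84% of a library, highest in P5 scrambled replicate 2. What 1 read was worth on this scale was estimated at 0.785 to 1.41, the latter in P5 scrambled replicate 2, which puts the reads assigned to genes at 3006551 to 5319609 per library. Genes silent elsewhere carried 3.12 scaled counts per kb in P7 scrambled replicate 3 and 0.170 in P7 scrambled replicate 2, against at most 0.0264 in the other libraries. A list of 10 muscle genes summed to 41, 159 and 1856 in the 3 P7 scrambled livers, against 13 to 79 in the other groups. The part of either in the P7 values of members was not tested. All 9 measured genes of a list of hepatocyte secreted proteins, albumin and transthyretin among them, were read in every group, with summed levels from 7564 to 12871 per library. No pair of replicates was identical or matched within sampling noise.

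By level, the members spanned a wide range. Per kb of the longest annotated coding transcript, the highest mean scaled counts belonged to the fibrinogen chains Fga (900 per kb) and Fgg (890 per kb), to the kininogen Kng1 (863 per kb) and to prothrombin, F2 (856 per kb). The plasmin inhibitor Serpinf2 (833 per kb), plasminogen, Plg (816 per kb), vitronectin, Vtn (814 per kb), and C3 (805 per kb) followed. At the other end stood the complement regulator Cd46 (1.67 per kb), the protein C inhibitor Serpina5 (7.17 per kb) and the tissue plasminogen activator Plat (11.4 per kb).

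Many of the most abundant members varied little, as did many other genes of that level. Of the 43 members with a mean of 500 or more, 34 had a coefficient of variation (SD over mean) under 15% across all 18 livers. Of all 2473 genes of that level, 1689 did. The median was 12.6% over the 43 members and 12.1% over the 2473 genes. The smallest belonged to F11, the contact factor XI, at 7.23%, C1ra at 8.83%, C1s1 at 9.24%, the C1 inhibitor Serping1 at 9.62% and the factor XIII carrier chain F13b at 9.70%.

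In part of these genes the scaled count moved with the worth of 1 read. When each value was divided by the worth of 1 read to give estimated reads, the spread became smaller in 26 of the 43 members, against 495 of the 2473 genes. The antitrypsin gene Serpina1b had 843 ± 11.3 estimated reads (SD, n = 18), a spread of 1.35% that was the smallest of all 2473 genes and under its counting error of 3.44%. Its scaled counts ran from 663 to 1175, a spread of 13.8%. Vtn had a spread of 2.70% in estimated reads against 13.3% in scaled counts, Kng1 3.40% against 12.6%, F2 3.69% against 13.1% and the plasmin inhibitor Serpinf2 4.08% against 11.7%. In contrast C3, the most abundant member by scaled count, had 12.9% against 11.7%, and F11 had 14.3% against 7.23%.

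In 20 members, all among the 34, more than 0.5 reads per base of transcript were estimated, with Fga at 0.902, Fgg at 0.892, Kng1 at 0.865 and F2 at 0.857. Outside the cascades, albumin, Alb, was read at 1.03 reads per base and fetuin, Ahsg, at 0.999, the latter with a spread of 1.94% in estimated reads against 13.1% in scaled counts. Whether duplicate reads were removed is, in the sources used here, not given, and whether the values of such genes still follow the amount of RNA was not tested. The order of the highest levels per kb and the age differences in these 20 members are therefore given with that limit, since a change of RNA could go unseen in them. Members below 0.5 may share it: Serpina1b at 0.479, Kng2 at 0.386 and Serpinc1 at 0.377 also spread less in estimated reads than in scaled counts. C3, at 0.814, did not. P5 scrambled replicate 2, where 1 read was worth most, had the highest scaled count of the 18 libraries in 31 of the 34. The worth of 1 read averaged 1.07 at P5, 0.908 at P7 and 1.02 at P14. Of the 34, none passed the age test at P7 against P5, 9 at P14 against P7 (8 of them higher) and 4 at P14 against P5. Of the other 41 members, 28 and 24 passed in the last 2 comparisons. The 34 were chosen by a spread under 15% across all 18 livers, so genes with a large age difference were left out. Fewer calls among the 34 than among the 41 are therefore partly fixed by this choice. The share of all genes under the same choice is not given here. The part of the worth of 1 read in these age results was not tested beyond its use as a covariate. The 5 Serpina1 genes are near-identical copies, as are C4b and its relatives, Kng1 and Kng2, and C1ra and C1s1 with their copies, and how reads were shared among such copies was not stated in the labels.

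**Figure D1:**
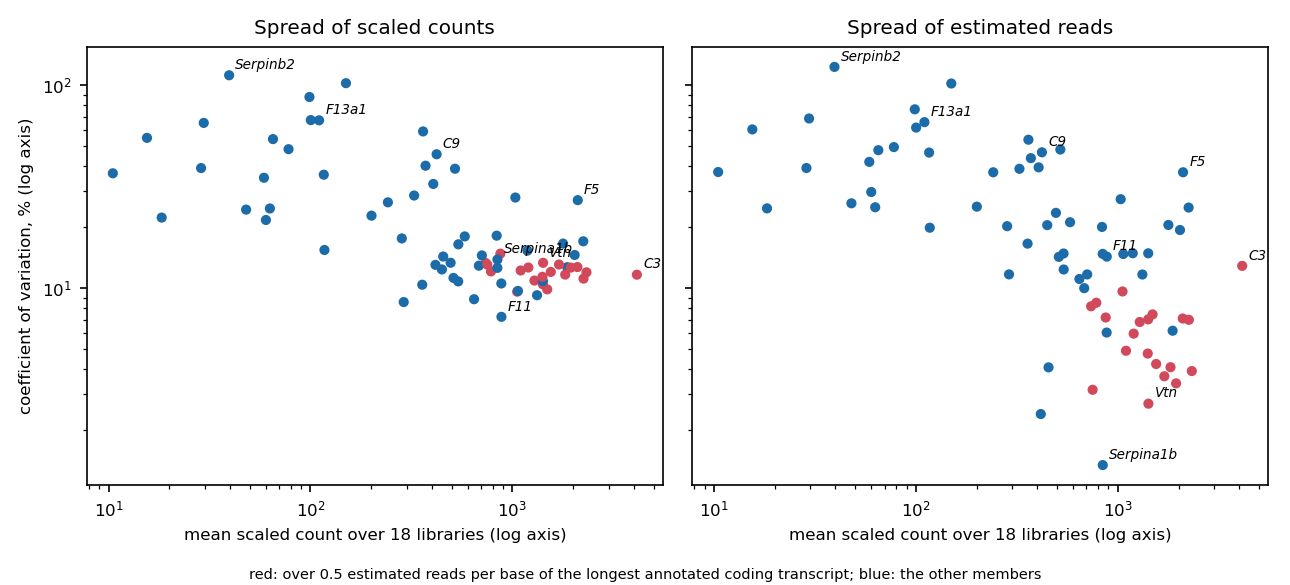
Coefficient of variation over the 18 libraries (percent, log axis) against the mean scaled count (log axis) for the 75 members, on the left for scaled counts and on the right for estimated reads; each point is a gene, red where more than 0.5 reads per base were estimated. Serpina1b drops from 13.8% on the left to 1.35% on the right and Vtn from 13.3% to 2.70%, while F11 goes up from 7.23% to 14.3%.

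The members differed between days in opposite directions. Between P5 and P14, C9 and C4bp rose most, by 2.66-fold and 1.79-fold, fibrinogen, prothrombin and the contact factors did not pass the test, and leukocyte integrins, both thrombin receptors, F13a1 and A2m fell, Itgb2l by as much as 20.5-fold. The falls of Itgb2l, F2rl3, Serpinb2 and Cd46, included in the counts below, are partly fixed by the choice of members, as given above. All values by day below are over both injections, 6 libraries a day, and tests are limma on log2(scaled count + 1) with Benjamini-Hochberg adjustment over 14104 genes. At P14 against P5, 28 of 75 members (37.3%) were past the threshold of 0.05, where 48.8% of all tested genes were. By direction, 11 members were higher and 17 lower, that is 14.7% and 22.7%, against 23.9% and 24.8% of all genes. The median log2 difference was 0.02 over the members and 0.01 over all genes. At P14 against P7, 37 members passed (49.3%, against 50.3% of all genes), 16 higher (21.3%, against 24.0%) and 21 lower (28.0%, against 26.3%). At P7 against P5, 11 passed (14.7%, against 26.9%), 10 higher (13.3%, against 13.7%) and 1 lower (1.33%, against 13.2%). At an unadjusted p under 0.05 the counts were 20 at P7 against P5, 44 at P14 against P7 and 31 at P14 against P5, in 26.7%, 58.7% and 41.3% of members against 41.0%, 56.8% and 54.9% of all genes. The 3 comparisons share libraries with each other, and 33 members passed in none of them.

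Members whose 6 livers of one day lay wholly above or below the 6 of the other day were counted as well. From P5 to P7 there were 0 higher and 0 lower, where 1.92% and 3.31% of all genes were so. From P7 to P14 there were 7 higher (9.33%, against 10.9%) and 13 lower (17.3%, against 14.6%). From P5 to P14 there were 5 higher, namely Pros1, F3, C4bp, C9 and F9 (6.67%, against 10.9%), and 12 lower (16.0%, against 15.3%). Serpinb2, Itgb2l and F2rl3, whose falls are partly fixed by the choice of members, were among the lower ones in both P14 comparisons.

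**Figure D2:**
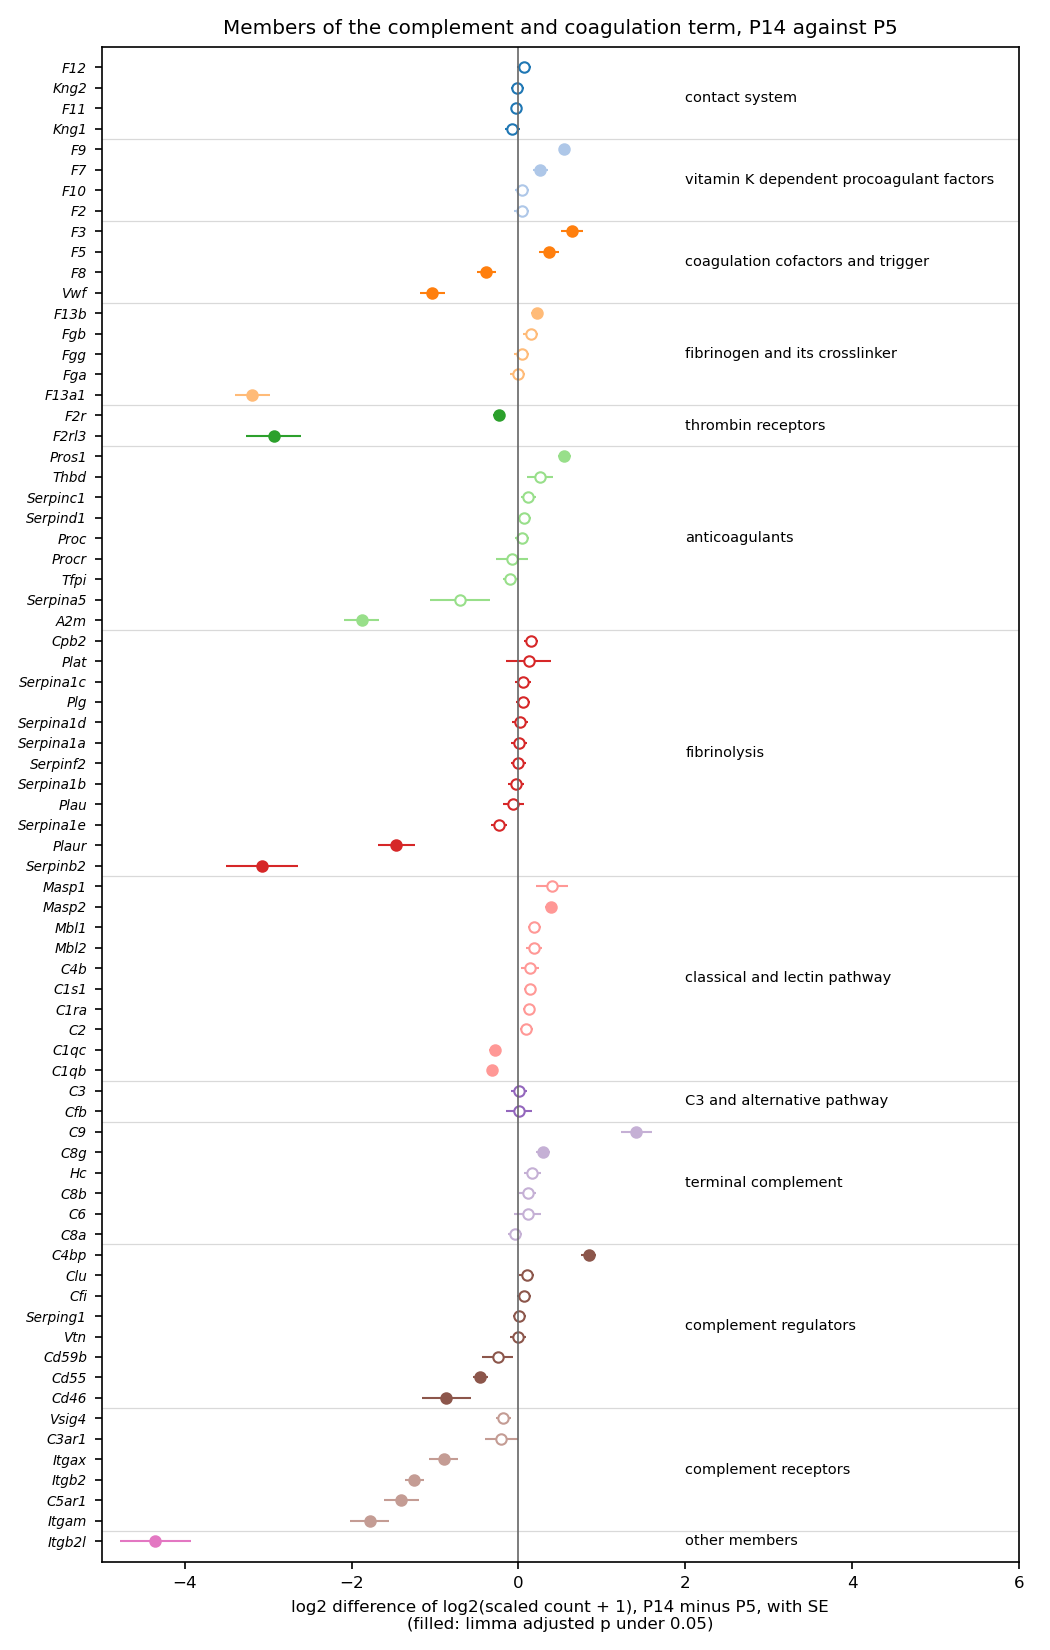
Log2 difference of P14 minus P5 with its standard error (horizontal axis) for 73 of the 75 members (rows), grouped and coloured by role; filled circles passed an adjusted p of 0.05 in limma. The contact factors and most of the fibrinolysis group, which holds antitrypsin genes, sit near 0. C9 at 1.41 is farthest to the right and Itgb2l at -4.36 farthest to the left.

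In the contact system, which starts coagulation on surfaces, none of the 4 members passed in any age comparison. Kng1, the precursor of bradykinin, ran from 1771 over a median of 2027 to 2711 at P5, from 1604 over 1739 to 2076 at P7 and from 1859 over 1938 to 2105 at P14. The 3 days overlapped, and Kng1 differed by -0.08 ± 0.09 (log2, SE) from P5 to P14. F12, F11 and Kng2 differed by 0.07, -0.03 and -0.01.

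Among the vitamin K dependent procoagulant factors, F9 and F7 were higher at P14. F9, the factor lacking in hemophilia B (chrX:59999464-60030759), had 637, 680 and 826 scaled counts as lowest, median and highest value at P5. At P7 these were 721, 774 and 880, and at P14 they were 931, 1011 and 1094. Every P14 liver lay above every P5 and P7 liver, and F9 rose by 0.55 ± 0.07 from P5 to P14 (log2, SE, adjusted p 1.39e-06), or 1.46-fold. F7, the partner of tissue factor, rose by 0.26 ± 0.09 (adjusted p 0.0252). Prothrombin, F2, went from a median of 1683 at P5 to 1773 at P14 and F10 from 1448 to 1477, with differences of 0.04 in both (adjusted p 0.776 and 0.742).

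The cofactors and the trigger of coagulation went both ways. Tissue factor, F3, had 44, 53 and 60 as lowest, median and highest at P5 and 70, 83 and 93 at P14, with no overlap, and rose by 0.65 ± 0.13 (adjusted p 0.000437). Factor V, F5 (chr1:164151838-164220277), was highest at P7, with 2137, 2797 and 3232, against 1235, 1476 and 2183 at P5 and 1503, 2139 and 2346 at P14. It rose by 0.76 from P5 to P7 (adjusted p 0.00173) and fell by 0.39 from P7 to P14 (adjusted p 0.0112), with overlap between the days.

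Factor VIII, F8, which sinusoidal endothelium makes, had medians of 320, 424 and 236 at P5, P7 and P14. It rose by 0.44 from P5 to P7 (adjusted p 0.011) and fell by 0.83 from P7 to P14 (adjusted p 1.17e-05). Of 10 sinusoidal endothelium genes 5 were lower at P14 than at P7, with a median of -0.10 and none at 0, and their part in the fall of F8 was not tested; the sums were 5599 to 7559 at P7 and 5211 to 6020 at P14. Its carrier Vwf, a product of endothelium and megakaryocytes, had 415, 494 and 566 at P5 and 143, 263 and 357 at P14. The 2 days did not overlap, and Vwf fell by 1.03 (SE 0.15, adjusted p 1.68e-05).

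**Figure D3:**
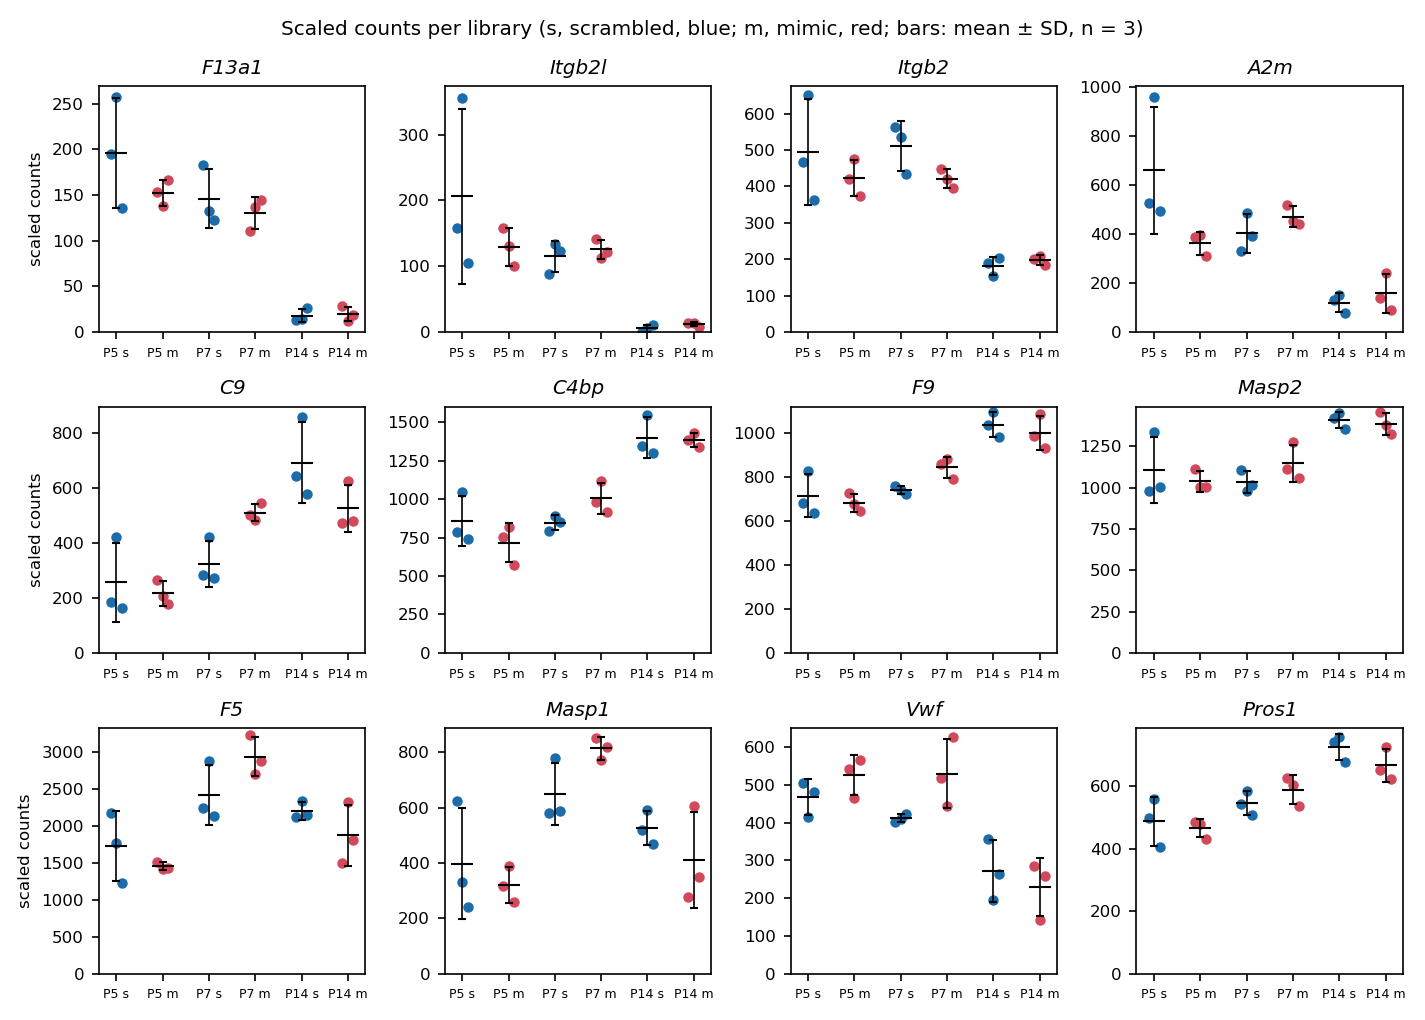
Scaled counts of 12 members (vertical axes, from 0) in each of the 6 groups (horizontal axes; s scrambled in blue, m mimic in red); each point is a library and bars give mean ± SD, n = 3. F13a1, Itgb2l, Itgb2 and A2m are low in all P14 livers, C9, C4bp and F9 are high there, F5 and Masp1 peak at P7, Vwf is low at P14, and Pros1 has its highest values in P14 livers.

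Among fibrinogen and its crosslinker, the catalytic chain F13a1 fell and the fibrinogen chains did not pass the test. Fga had medians of 2311, 2074 and 2347 at P5, P7 and P14, and neither Fga, Fgb nor Fgg passed from P5 to P14 (-0.01, 0.15 and 0.04). The fibrinogen chains were read at 0.902, 0.553 and 0.892 reads per base in Fga, Fgb and Fgg and F13a1 at 0.0284, so the limit given above for genes of many reads per base touches the fibrinogen values and not that of F13a1. F13a1, the catalytic chain of factor XIII, which macrophages and megakaryocytes make (chr13:36867178-37050244), had 136, 160 and 257 at P5 as lowest, median and highest value. At P7 it had 110, 135 and 183, and at P14 only 12, 16.5 and 28. All P14 livers lay below all others, and F13a1 fell by 3.19 (SE 0.21, adjusted p 4.38e-10), 9.13-fold on this scale. F13b, its carrier chain from hepatocytes, rose by 0.22 (adjusted p 0.0107).

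Both thrombin receptors fell. The platelet receptor F2rl3 had 40, 45 and 51 at P5, 22, 37 and 56 at P7 and 2, 4 and 19 at P14, with P14 below the other days throughout. It fell by 2.94 from P5 to P14 (SE 0.33, adjusted p 5.26e-07), a fall partly fixed by the choice of members. F2r had medians of 500, 557 and 412 and fell by 0.24 from P5 to P14 (adjusted p 0.0103). The P5 and P14 livers overlapped in F2r.

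Among the 9 anticoagulants, Pros1 was higher and A2m lower at P14 than at P5. Protein S, Pros1, had 405, 483 and 559 at P5 and 625, 703 and 759 at P14 without overlap, and rose by 0.55 (SE 0.08, adjusted p 7.22e-06). The protease trap A2m (chr6:121636228-121679227) had 308, 444 and 958 at P5, 329, 445 and 519 at P7 and 76, 134 and 242 at P14. Again all P14 livers were lowest, and A2m fell by 1.88 (SE 0.21, adjusted p 6.15e-07), or 3.69-fold. Antithrombin, Serpinc1, with medians of 1902, 1629 and 2024, was 0.29 higher at P14 than at P7 (adjusted p 0.00929) and 0.12 higher than at P5 (adjusted p 0.258). Protein C, Proc, was 0.22 higher at P14 than at P7 (adjusted p 0.0448), and Tfpi, Thbd, Procr, Serpind1 and Serpina5 passed in no age comparison. Serpinc1 and Proc spread less in estimated reads (6.18% and 4.92%) than in scaled counts (12.7% and 12.2%). Neither call at P14 against P7 stood in all 30 alternatives other than the red cell covariate. The part of the worth of 1 read in these 2 rises was not tested beyond its use as a covariate.

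In the group named fibrinolysis, the dissolving of clots, 2 of 13 members fell from P5 to P14 and none rose. Antitrypsin genes, Serpina1b, Serpina1d and Serpina1e among them, were counted in this group. The urokinase inhibitor Serpinb2 had 32, 42.5 and 89 at P5, 17, 51 and 189 at P7 and 1, 5 and 10 at P14, the value of 189 being P7 scrambled replicate 1. P14 was lowest throughout, and Serpinb2 fell by 3.08 (SE 0.43, adjusted p 9.47e-06), which is partly fixed by the choice of members. The urokinase receptor Plaur, with medians of 82, 56.5 and 33.5, fell by 1.46 (adjusted p 2.64e-05). Plasminogen, Plg, had medians of 2153, 2080 and 2283 and a difference of 0.05 (adjusted p 0.649).

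Among the 10 members of the classical and lectin pathways, 1 rose and 2 fell from P5 to P14. The lectin pathway protease Masp2 had medians of 1002, 1084 and 1399, and rose by 0.39 (SE 0.07, adjusted p 0.00024). P14 lay above P7 throughout, and of the P5 livers 1 overlapped with P14: P5 scrambled replicate 2 at 1338. Masp1 was highest at P7, where it had 581, 775 and 852, against 241, 324 and 622 at P5 and 278, 494 and 605 at P14. It rose by 1.08 from P5 to P7 (adjusted p 0.00269) and fell by 0.68 from P7 to P14 (adjusted p 0.00751). The C1q chains C1qb and C1qc, made by macrophages, fell by 0.31 and 0.29 (adjusted p 0.000815 and 0.00197), and P5 and P14 did not overlap in either. C4b, with medians of 1833, 2136 and 2116, passed in no age comparison.

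C3, the centre of the complement cascade (chr17:57203970-57228136), stayed level. Its lowest, median and highest values were 3484, 4043 and 5172 at P5, 3849, 4093 and 4919 at P7 and 3230, 4199 and 4553 at P14. The days overlapped, and the difference from P5 to P14 was 0.01 ± 0.09 (adjusted p 0.947). Factor B, Cfb, had medians of 55.5, 73 and 53.5 and was 0.44 higher at P7 than at P5 (adjusted p 0.0472).

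The steepest rise of any member from P5 to P14 was in the last component of the membrane pore. C9 (chr15:6445327-6498751) had 163, 197 and 422 at P5 as lowest, median and highest value, 272, 453 and 545 at P7 and 472, 602 and 858 at P14. P14 lay above P5 throughout and overlapped with P7. C9 rose by 1.41 from P5 to P14 (SE 0.19, adjusted p 4.35e-06), or 2.66-fold, with 0.85 of it from P5 to P7 (adjusted p 0.0055). From P7 to P14 the difference was 0.56 (adjusted p 0.0173, and 0.0516 without P14 scrambled replicate 2). The other pore genes moved less: C8g rose by 0.30 (adjusted p 0.00819), and Hc, which encodes C5, C6, C8a and C8b differed by 0.17, 0.11, -0.04 and 0.11 without passing.

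Of the 9 complement regulators, 2 rose and 2 fell from P5 to P14. C4bp, a plasma inhibitor of C4b (chr1:130634773-130661632), had 573, 771 and 1043 at P5, 794, 904 and 1115 at P7 and 1298, 1367 and 1550 at P14. All P14 livers were above all others, and C4bp rose by 0.84 (SE 0.09, adjusted p 4.42e-07), or 1.79-fold. The membrane-bound regulators Cd55 and Cd46 fell by 0.46 and 0.86 (adjusted p 0.000433 and 0.0193), with Cd46 between 2 and 16 scaled counts in all livers. The fall of Cd46 is partly fixed by the choice of members. Vtn, Cfi, Clu and Serping1 differed by 0.00 to 0.10 in size and did not pass, nor did the membrane-bound Cd59b, at -0.25 (adjusted p 0.281).

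Of the 6 complement receptors, all fell from P7 to P14 and 4 from P5 to P14. Itgam, the CD11b chain of complement receptor 3 (chr7:128062640-128118491), had 99, 118 and 292 at P5, 83, 96 and 226 at P7 and 27, 38 and 50 at P14. Its partner Itgb2 had 363, 444 and 651, then 396, 441 and 563, then 153, 195 and 209. Both were lower in every P14 liver than in any other, and fell from P5 to P14 by 1.79 (adjusted p 4.54e-06) and 1.25 (adjusted p 5.14e-08).

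The C5a receptor C5ar1 fell by 1.40 and Itgax by 0.90 over the same interval (adjusted p 1.9e-05 and 0.000303). Vsig4, the receptor of Kupffer cells, the macrophages of the liver, differed by -0.18 (adjusted p 0.0864) and the C3a receptor C3ar1 by -0.21 (adjusted p 0.412). P7 scrambled replicate 1 was the highest of all libraries in C3ar1, at 263, and in Serpinb2. Itgb2l, a leukocyte integrin gene similar in sequence to Itgb2, had 100, 144 and 356 at P5, 88, 123 and 141 at P7 and 0, 9.5 and 14 at P14. It fell by 4.36 (SE 0.43, adjusted p 1.05e-07), the largest fall of any member and one partly fixed by the choice of members.

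Marker lists of blood cells moved with these falls. From P5 to P14, all 10 megakaryocyte and platelet genes, all 10 neutrophil precursor genes and all 9 red cell precursor genes passed as lower, with median log2 differences of -2.70, -2.51 and -3.79. The megakaryocyte genes summed to 2570 to 3645 per library at P5, 1756 to 3257 at P7 and 525 to 1395 at P14. The neutrophil genes summed to 4019 to 8052, 3285 to 4283 and 621 to 1485. Of 10 Kupffer cell genes, Vsig4 among them, 6 were lower, with a median of -0.49, and their sums were 6989 to 8501, 7020 to 8429 and 5358 to 6783. No marker of these lists was at 0 in a whole group. Their part in the falls of F13a1, F2rl3, Vwf, Plaur, Serpinb2, C5ar1 and the integrins was not tested. The list of 9 hepatocyte secreted genes had 1 gene higher and none lower, with a median of 0.01, but 8 of the 9 were read at more than 0.5 reads per base, so that their values near 0 are no control for the falls.

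How far the age calls held under other settings differed between the comparisons. In 25 of the 28 members called from P5 to P14 (not F5, F7 and Cd46), the call stood in each of the 30 alternatives other than the red cell covariate in which the gene was tested, 9 higher (C4bp, C8g, C9, F13b, F3, F9, Masp2 and Pros1 among them) and 16 lower. From P7 to P14, 18 of 37 stood in all 30. From P5 to P7 none of the 11 did, and leaving out 1 library at a time gave from 5 calls to 22, the latter without P5 scrambled replicate 1. With the mean level of the red cell genes as a covariate, 0 members passed in any age comparison, and that level did not overlap between P14 (4.35 to 6.46, log2) and the earlier days (8.68 to 9.77), so it cannot be told apart from age.

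The rises at P7 also went with transcript length. The 10 members higher at P7 than at P5, among them Masp1, C9, F5, C6, F8, Cfb, Hc, Pros1 and F9, had a median transcript of 3834 bases, against 2248 in the 64 members that did not pass. The slope of a library's values with length averaged -0.06 at P5, 0.09 at P7 and -0.03 at P14 (log2 per doubling of length). With that slope as a covariate 0 of the 75 members passed at P7 against P5 in limma. The share of all genes under this covariate is not given here. Single libraries had slopes of -0.14 to 0.05 at P5 and of 0.00 to 0.15 at P7, so the covariate takes up part of the day difference. The part of length in the rises was not tested. Without P7 scrambled replicates 2 and 3 together, 5 passed.

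Motif letters among called members are given as a description, and no difference between the sets was tested. From P5 to P14, the PU.1 letters were present in 7 of the 14 falling members with a promoter (C1qb, C1qc, F13a1, F2rl3, Itgam, Itgb2l and Plaur) in 1 of 10 rising members, F7, and in 4 of the 33 that did not pass. The C/EBP letters were in 2 of the 14 falling (Plaur and Serpinb2), 2 of the 10 rising (C9 and F9) and 15 of the 33. The GATA letters were in 2 of the 14 falling (F2rl3 and Itgax), 0 of the 10 rising and 4 of the 33.

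Related genes outside the term were read from lists. The counts of these lists stand beside 23.9% of all tested genes higher and 24.8% lower at P14 than at P5. Of 24 further factors that are no members, 8 were higher and 2 lower at P14 than at P5, with a median of 0.08. Higher were Serpina10, the inhibitor of factor Xa with protein Z, Habp2, C1rl, Colec11, Colec12, Tfpi2, Ecm1 and Adamts13, the protease that cuts Vwf, which rose by 0.74 (adjusted p 0.013). Lower were properdin, Cfp, and ficolin A, Fcna, by 0.51 and 0.43 (adjusted p 1.5e-05 and 0.00029). Of 7 genes of the vitamin K cycle and factor export, 2 were higher: Ggcx, the carboxylase that activates the vitamin K dependent factors, by 0.39 (adjusted p 0.00021), and Aifm2, a vitamin K reductase, by 0.68 (adjusted p 6.5e-07). Of 16 regulators of hepatocyte genes, 11 were higher, Foxa2 by 0.62 and Hnf4a by 0.31 among them, and 2 lower, Socs3 by 0.45 and Cebpd by 0.42.

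No member passed the threshold between mimic and scrambled livers. With limma and Benjamini-Hochberg adjustment over all genes, 0 of 75 members passed at P5, where 0.0% of all genes did, 0 at P7 (0.00709% of all genes) and 0 at P14 (0.0213%, with 0.0142% higher). Averaged over the days the count was 0 (0.00709%), and 0 members had an effect that differed between days (0.00709%). At an unadjusted p under 0.05 there were 2 members at P5, 2 at P7, 2 at P14, 1 for the average and 4 for the difference between days, that is 2.67%, 2.67%, 2.67%, 1.33% and 5.33% of the members. Among all genes these shares were 1.89%, 7.61%, 5.41%, 3.24% and 6.5%. The median member differed by -0.09 at P5, 0.04 at P7 and -0.05 at P14 (log2), against -0.02, -0.00 and 0.00 over all genes, and in all alternatives the count stayed at 0.

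**Figure D4:**
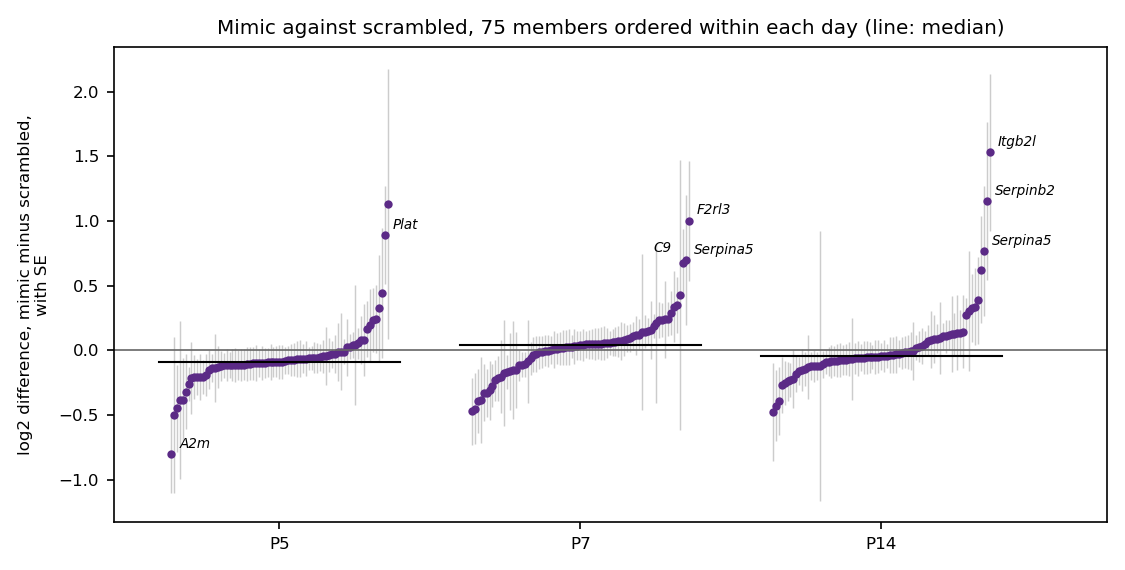
Log2 difference of mimic minus scrambled (vertical axis) for the 75 members at P5, P7 and P14, ordered by size within each day, with standard errors in grey and the median as a black line. The medians sit at -0.09, 0.04 and -0.05, and the labelled members F2rl3 at P7 and Itgb2l at P14, at 1.00 and 1.53, have wide errors.

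At P5 the smallest p belonged to A2m, which had 525, 958 and 494 scaled counts in the scrambled and 385, 393 and 308 in the mimic livers. The groups did not overlap, the difference was -0.80 ± 0.30 (log2, SE), and the adjusted p in limma was 1. Plat, the tissue plasminogen activator, had 18, 16 and 28 against 28, 43 and 46, so that the groups met at 28, with a difference of 0.89 ± 0.38. C4bp and Hc were among those that followed, with -0.26 and -0.21.

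At P7, C9 had 282, 421 and 272 in the scrambled and 502, 485 and 545 in the mimic livers. All mimic livers were higher, by 0.68 ± 0.26, with an adjusted p of 0.503 in limma. At P5 the same gene had 187, 422 and 163 against 266, 206 and 178, and at P14 643, 858 and 577 against 472, 626 and 480, where the mimic livers were on average lower, by -0.39. The test of a difference between days gave C9 an adjusted p of 0.678.

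F2rl3 had 28, 22 and 23 in the scrambled and 46, 47 and 56 in the mimic livers at P7, a difference of 1.00 ± 0.46 without overlap (adjusted p 0.632, limma). The megakaryocyte list summed to 1756 to 1982 in those scrambled and 2715 to 3257 in those mimic livers, all 10 of its genes above 0, and its part in the F2rl3 and Vwf values was not tested. Groups without overlap at P7 numbered 8 higher (Vwf, C4bp, Hc, C9, F2r, F2rl3 and F9 among them, 10.7% of members against 6.52% of all genes) and 3 lower (Procr, Itgax and C6, 4.0% against 7.44%). F9, C4bp and Cd59b, the others of smallest p at P7, differed by 0.19, 0.24 and -0.47.

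At P14 the smallest p was that of Itgb2l, with 0, 6 and 11 in the scrambled and 14, 14 and 8 in the mimic livers. These overlapped, and the difference of 1.53 ± 0.60 on the log2(scaled count + 1) scale rests on values near 0 (adjusted p 0.814, limma). The 10 neutrophil genes, all of them above 0 in log2 difference at P14, summed to 621 to 1176 in the scrambled and 990 to 1485 in the mimic livers, and their part in the Itgb2l values was not tested. The 9 red cell precursor genes summed to 702 to 1117 in the scrambled and 1210 to 1649 in the mimic livers, without overlap, 8 of them above 0 in log2 difference, and Kel among them passed (adjusted p 0.00311, limma). With the mean level of those genes as a covariate the Itgb2l difference was -0.41. Cd55 had 237, 191 and 234 against 271, 310 and 224, a difference of 0.28, also with overlap. Serpinb2 differed by 1.15, C3 by -0.23 and C4b by -0.24. Without overlap at P14 were Serpina5 as higher (1.33% of members against 4.96% of all genes) and Serping1 and Kng2 as lower (2.67% against 4.35%). At P5 the counts were 0 higher (2.89% of all genes) and 1 lower, A2m (2.12%).

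Averaged over the days, Serpina5 had the smallest p, with 6, 28 and 15 against 25, 12 and 23 at P5, 18, 8 and 13 against 10, 24 and 36 at P7 and 8, 5 and 9 against 12, 11 and 16 at P14. Only the P14 groups were apart, and the average difference was 0.63 ± 0.29 (adjusted p 1.00, limma). F8, F2rl3, Serping1 and F2r came next, with -0.17, 0.45, -0.08 and 0.07.

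In the 8 members with a match to the seed, the differences between mimic and scrambled livers ran from -0.21 to 0.19 at P5, from -0.33 to 0.34 at P7 and from -0.43 to 0.14 at P14, with 6, 4 and 4 of the 8 below 0. Masp1, with 3 matches of which 2 overlap, had -0.21, 0.34 and -0.43 at P5, P7 and P14. Thbd, with 2 matches, had 0.02, -0.33 and 0.08, and Serpinc1, also with 2, had -0.09, 0.01 and -0.01.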

How the data were processed

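The deposited table holds scores: judged from the values, the authors divided each library's gene counts by a factor and rounded them to whole numbers, called scaled counts here. Per the submitters' processing notes, the tools were DESeq2 1.26.0, featureCounts 1.6.5, STAR 2.6.1d, Trimmomatic 0.39 and Picard 2.21.7, with mm10 (GRCm38). Removal of duplicates and use of strand in counting: not given in the sources used here. The 18 libraries were grouped by their titles. Genes with a mean of 10 or more (14104) were tested with limma 3.58.1 in R 4.3.3 on log2(value + 1), with 6 group means, eBayes with a trend (12 residual and 6.49 prior degrees of freedom) and Benjamini-Hochberg adjustment, threshold 0.05. Fold changes on this scale understate those of low genes. No count model was run, as the values are rounded after scaling. The script was tested on simulated data. Lengths and 3′ untranslated regions came from GENCODE M21, promoters and the microRNA from RefSeq (GRCm38.p6). The worth of 1 read was fitted from whole numbers missing or doubled among low values. Python 3.11.15, pandas 2.3.3, numpy 2.4.6 and matplotlib 3.10.9 were used.

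The members and lists were chosen with earlier results of these data known. Genes named were the up to 6 largest rises and falls past the threshold per age comparison, the 5 of smallest p per mimic comparison, the highest member of each role, and those with the smallest spread or highest level per kb; others named with values were added after their values were seen. Alternatives changed the normalization (quantile, or TMM by own code), the pseudocount (5), the filter (none, or a mean of at least 50), the trend (none), the libraries fitted (those compared alone, or all but 1), the block (replicate number) and the covariate (length slope, or red cell genes). The worth of 1 read as a covariate and 2 joint omissions of libraries were added after seeing the data. A few genes and 1 site that the rules select are not reported here.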

Additional observations from a re-analysis of the deposited data

How the results depend on the processing

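The 5 counts for the mimic were 0 in every alternative run. Counts of members past the threshold at P7 against P5, P14 against P7 and P14 against P5 were 11, 37 and 28. Leaving out 1 library gave 5 to 22, 30 to 44 and 26 to 39. The highest count at P7 against P5 came without P5 scrambled replicate 1, with 22, and the lowest, 5, without P5 scrambled replicate 3, P5 mimic replicate 3, P7 scrambled replicate 2 or P7 mimic replicate 1; it was 7 without P5 mimic replicate 1 or P7 mimic replicate 3. The length slope as a covariate gave 0, 22 and 35, and the red cell list 0, 0 and 0. At P7 against P5, no filter gave 7, quantile normalization 27 (8 higher and 19 lower), and the worth of 1 read as a covariate 3. Without P7 scrambled replicates 2 and 3 together the counts were 5, 24 and 28. The cause was not tested, and the red cell covariate below is no test of it, since that level cannot be told apart from age. Replicate numbers did not pair the livers, with correlations of same-numbered deviations from -0.46 to 0.25, and with the replicate number as a block the counts were 12, 36 and 29. With the red cell covariate Itgb2l turned to 2.10 at P14 against P7, 2.64 at P14 against P5 and -0.41 for the mimic at P14, and with quantile normalization C3 turned to 0.021 for the mimic at P14. Of 31 named calls, 29 were lost with the red cell covariate and the remaining 2, both of Itgb2l, turned; 9 were lost with the length slope, 5 with the worth of 1 read and at most 4 under any other setting. The red cell level at P14 lies apart from that of the earlier days, so that this covariate nearly carries the day by construction. Depth limits the genes under about 10 scaled counts, where 1 read moves a value by up to 1.41.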
